A study of Mus musculus with 1094 samples.

Results

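The genes described here are the subunits of the receptors for glutamate and GABA, followed in single cells of the developing mouse dorsal cortex. They were chosen by gene symbol alone, which gave 47 of the 23078 genes listed. The 42 described are 4 AMPA, 5 kainate, 7 NMDA and 1 delta subunit, 7 metabotropic glutamate receptors, 5 alpha, 2 beta and 9 other GABA-A subunits (gamma, delta, epsilon, pi, theta and rho), and 2 GABA-B subunits, and all counts of members refer to these. The 1094 cells came from wild-type female C57Bl/6 mice that carried a reporter transgene. Neural stem cells (NSC) were sorted for GFP driven by the Hes5 promoter, and basal progenitors (BP) and newborn neurons (NBN) were sorted from mice with GFP driven by the Tbr2 (Eomes) promoter. Each reporter marks the cells in which its promoter is, or was recently, active, so a sort can hold the daughters of the named cell type. Cells were captured on a Fluidigm C1 array, and the library is here all cells of 1 population at 1 stage. There were 8 NSC libraries (E10.5, E11.5, E13.5, E15.5, E17.5, E18.5, P0 and P1, 538 cells), 5 BP libraries (E12.5, E14.5, E16.5, E18.5 and P0, 344 cells) and 4 NBN libraries (E16.5, E18.5, P1 and P3, 212 cells). The labels name no animals, litters or runs, so the p-values below measure only the spread between these libraries, which may be partly technical.

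Glutamate and GABA are the main fast transmitters of the cortex. AMPA, kainate and NMDA receptors are cation channels built from several subunits, metabotropic glutamate receptors act through G proteins, GABA-A receptors are chloride channels of mixed subunits, and GABA-B receptors are obligate pairs that act through G proteins. In the embryonic cortex these receptors are known from dividing progenitors and migrating neurons as well as from synapses, and GABA often depolarizes such young cells.

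The libraries were checked against their labels with 14 radial glia genes and 14 newborn neuron genes, none of them a receptor subunit. A cell whose mean log2(TPM + 1) was higher over the neuron genes is called a neuron-profile cell, and the opposite a progenitor-profile cell. TPM, the share of a transcript among all transcripts of a cell, is scaled by transcript length, so levels can be compared between genes. Neuron-profile cells made up 2.27% of NSC cells at E10.5, 54.2% at E11.5, 51.5% at E13.5, 90.7% at E15.5, 68.4% at E17.5, 22.7% at E18.5, and 6.25% and 6.38% after birth, on P0 and P1. They made up 91.0% to 100% of the BP libraries and 92.9% to 95.2% of the NBN libraries up to P1, but 27.5% of the library labelled NBN P3. In that library 36 of 40 cells held markers of another cell type, among them 15 with microglial and 5 with endothelial markers, and the mean log2(TPM + 1) of the microglial list was 3.78 against 0.30 to 0.56 in the other 16 libraries. Of the NSC and NBN libraries, NSC E15.5 and NBN P3 lie farthest from their labels by this measure. Results are given with and without this pair, although neuron-profile cells also made up over 50% of NSC E11.5, E13.5 and E17.5. In the BP libraries the newborn neuron list had a mean log2(TPM + 1) of 4.61 to 6.89. A list of basal progenitor genes, Eomes among them, had 1.97 to 3.02 there and 2.50 in NSC E13.5. BP levels below are thus those of the sort, not of basal progenitors alone. NSC P0 held 19 of 48 cells with interneuron markers. Over all 17 libraries, 106 NSC, 27 BP and 50 NBN cells carried markers of another type. The median number of genes detected per cell ran from 3189 to 5764 between libraries.

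Most subunits were present somewhere, but few were present in many cells. Of the 42 genes, 24 reached a mean of 10 TPM in at least 1 library and 17 were at 1 TPM or more in at least 10% of all cells, while 4 (Gabra6, Gabrd, Gabrp and Gabrr3) reached 1 TPM in no cell. The filter for testing, a mean of 1 TPM in at least 4 libraries, was passed by 27 members. The 15 others were 3 NMDA subunits (Grin2a, Grin2c, Grin2d), Grm6, Grm7, Gabra5, Gabra6, Gabrg1, and the 7 GABA-A subunits outside the alpha, beta and gamma classes. The median number of subunit genes per cell was 2 at NSC E10.5 and E11.5, 5 to 8 in the BP libraries, 9 at NBN E16.5, 7 at NBN E18.5 and NBN P1, and 2 at NBN P3. The summed level of the AMPA, kainate and NMDA genes was 32.2 TPM at NSC E10.5, 495.0 at NSC E15.5, 642.7 at BP P0 and 823.4 at NBN P1, against 35.5 at NBN P3. A mean over a library cannot tell fewer cells with a transcript from less of it per cell, so shares of cells are given beside the levels.

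**Figure D1:**
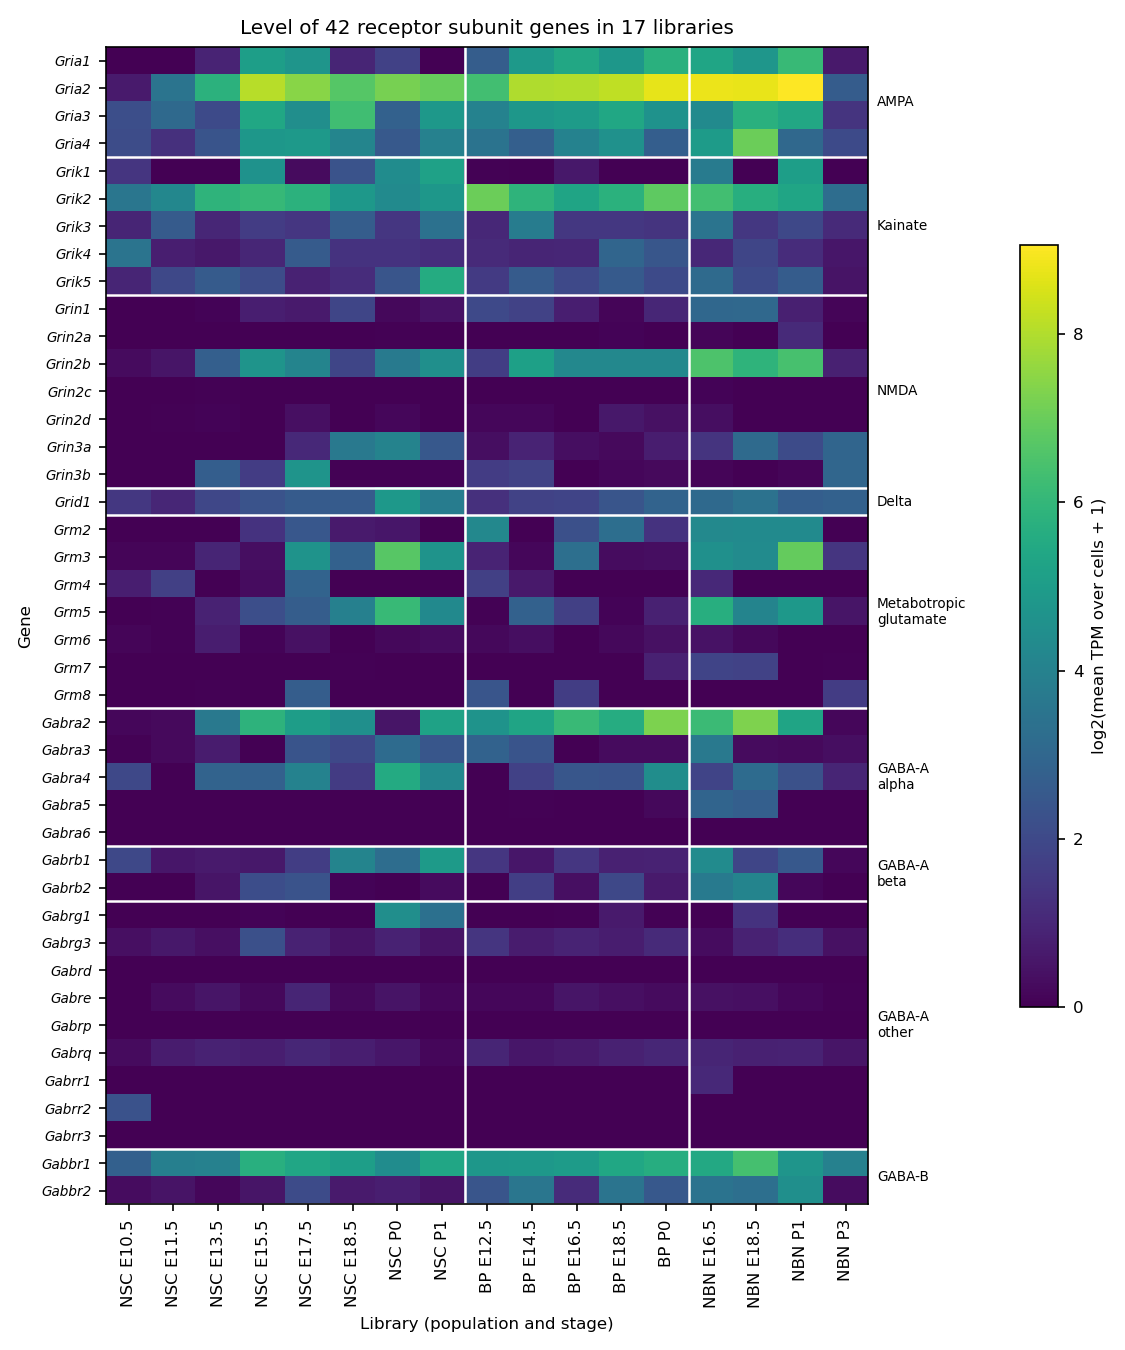
Each row is 1 of the 42 subunit genes, grouped by receptor class, and each column 1 of the 17 libraries in order of population and stage; colour gives log2(mean TPM over cells + 1). Gria2 is the brightest row, reaching 535.2 TPM at NBN P1, and the NBN P3 column is dark for the genes that are bright in the other 3 NBN columns.

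Regulatory sequence is shown for 3 members: Gria2, at the highest mean over the 17 libraries of the genes described (212.1 TPM, 71.1% of cells), and a pair found in few cells, Grin1 (1.61 TPM, 4.84% of cells) and Grm2 (5.63 TPM, 4.39% of cells). The sequences are the 250 bases before the RefSeq gene start (GRCm38.p6, printed 5′ to 3′ on the gene's own strand, the minus strand in all of them): chr3:80802836-80803085 for Gria2, chr2:25319188-25319437 for Grin1 and chr9:106656110-106656359 for Grm2. Capitals mark every match, on either strand, to TTCAGCACC, GGACAG and GGGCGG. The first pair are the left and right parts of the RE1 element, the site of the repressor REST that keeps many neuronal genes low outside neurons, and GGGCGG is the GC box core. CTGTCC is GGACAG on the other strand.
Gria2: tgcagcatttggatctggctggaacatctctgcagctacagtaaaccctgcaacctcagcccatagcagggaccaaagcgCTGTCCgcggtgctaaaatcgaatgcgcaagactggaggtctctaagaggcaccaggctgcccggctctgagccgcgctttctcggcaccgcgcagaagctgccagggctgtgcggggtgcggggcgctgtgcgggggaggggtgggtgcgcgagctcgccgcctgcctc
Grin1: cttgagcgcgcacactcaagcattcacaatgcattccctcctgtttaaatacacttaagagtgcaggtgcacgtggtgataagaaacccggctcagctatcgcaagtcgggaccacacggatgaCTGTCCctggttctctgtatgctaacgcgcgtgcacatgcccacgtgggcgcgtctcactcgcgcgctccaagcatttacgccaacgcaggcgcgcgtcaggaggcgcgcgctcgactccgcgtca
Grm2: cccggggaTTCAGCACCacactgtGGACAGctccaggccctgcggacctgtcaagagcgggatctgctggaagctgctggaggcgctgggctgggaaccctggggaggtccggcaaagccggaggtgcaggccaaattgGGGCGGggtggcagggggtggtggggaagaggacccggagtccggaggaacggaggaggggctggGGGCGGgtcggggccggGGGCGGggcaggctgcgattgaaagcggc

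A RefSeq promoter was found for 32 of the 42 members. TTCAGCACC occurred in 1 of them, Grm2, and in 0.301% of all 32851 promoters. GGACAG occurred in 12 of the 32 against 18.7% of all promoters, and GGGCGG in 17 of the 32 against 32.7%. CAGATG, an E-box that was also searched, occurred in 3 of the 32 against 14.4% of all promoters and in none of those printed. Both RE1 parts together were in Grm2 and in 0.0487% of all promoters. The motifs were chosen after these sequences had been seen, and a match describes letters only.

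Summed over its genes, the AMPA class was the most abundant glutamate receptor class in 11 of the 17 libraries. Kainate genes were higher at NSC E10.5 (24.6 against 7.41 TPM), E11.5, E13.5 and BP E12.5. Metabotropic genes were higher at NSC P0 (172.6 against 160.4 TPM), and NMDA and kainate genes at NBN P3. At NSC P0, 1 cell held 41.9% of the Grm3 sum, and the Grm3 mean without it was 62.1 TPM. At NBN P3, 1 cell held 96.1% of the Grin3a sum and 1 cell 75.4% of the Grin3b sum. Gria2, the subunit whose edited form makes the channel impermeable to calcium, made up over 50% of AMPA transcript in all libraries but NSC E10.5 and NBN P3. In the NSC libraries the mean Gria2 level was 0.567 TPM at E10.5, 10.3 at E11.5, 55.5 at E13.5, 270.2 at E15.5, 173.7 at E17.5, 102.0 at E18.5, then 147.3 (P0) and 123.6 (P1). In the BP libraries it was 79.8, 253.3, 256.5, 293.3 and 421.5 TPM from E12.5 to P0, and in the NBN libraries 441.9, 436.0, 535.2 and 5.17 TPM from E16.5 to P3. Without NBN P3, the NBN libraries lay above every BP and NSC library, and the lowest BP library lay within the range of the NSC libraries. Gria2 was at 1 TPM or more in 778 of 1094 cells (71.1%, exact Clopper-Pearson 95% interval 68.3 to 73.8, which counts cells only). The share was 5.68% of cells at NSC E10.5 and 98.4% at NBN E16.5. At NBN P3 it was 15.0%.

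Gria3, another pore subunit of the same class, had means from 3.12 to 76.7 TPM in NSC, from 15.2 to 41.6 TPM in BP and from 1.60 to 53.5 TPM in NBN libraries. The 3 ranges overlapped throughout. For Gria3, 1 cell held 57.1% of the sum at NSC E18.5 and 1 cell 85.0% at NBN E18.5. The means without these cells were 33.4 and 8.12 TPM. Gria1, a subunit recruited to synapses in plasticity, was under 1 TPM in 5 of 8 NSC libraries. It was at 5.35 to 52.5 TPM in BP and at 26.1 to 67.7 TPM in NBN libraries up to P1. At NBN P1, 1 cell held 74.1% of the Gria1 sum, and the mean without it was 18.0 TPM. Gria4 reached its highest level, 131 TPM, at NBN E18.5, where 1 cell held 63.6% of the sum and the mean without that cell was 48.3 TPM. Gria2 made up 67.5% to 83.2% of the summed AMPA transcript in the NBN libraries up to P1 and 7.66% at NSC E10.5.

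In single cells, 848 of 1094 held an AMPA subunit at 1 TPM or more and 442 held Gria2 with another AMPA gene. An AMPA gene without Gria2, the combination expected of calcium-permeable channels, was seen in 70 cells (6.40%, interval 5.02 to 8.02). These were 52 of 538 NSC cells (9.67%), 7 of 344 BP cells (2.03%) and 11 of 212 NBN cells (5.19%), 6 of the last in NBN P3. Within the NSC libraries they were 37 of 314 progenitor-profile cells (11.8%) and 15 of 220 neuron-profile cells (6.82%). TPM keep no read depth, so a transcript missed in a cell and a transcript absent from it cannot be told apart.

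Kainate receptors were led by Grik2, a subunit that forms channels alone or with others. Its means were 10.8, 17.54, 58.1, 66.4, 55.7, 27.5, 19.2 and 26.6 TPM along the NSC series, 129.6, 59.2, 38.5, 54.7 and 110.7 TPM along the BP series and 78.6, 50.1, 39.3 and 8.49 TPM along the NBN series. The highest value was thus at the earliest BP stage, where 52 of 72 cells (72.2%, interval 60.4 to 82.1) held it, and the BP and NSC ranges overlapped. Grik1 was patchy: it was at 0 in 6 libraries, and its high means (35.2 TPM at NSC P1, 32.7 TPM at NBN P1) came from 4 cells and 1 cell. At NSC P1, 3 of those 4 cells were among the 6 with oligodendrocyte markers, whose mean was 259.1 TPM against 2.65 TPM in the 37 cells without markers of another type. Grik3 was at 1 TPM or more in 39.7% of cells at low levels, never above 13.0 TPM in a library. Grik4 and Grik5, the subunits that need Grik1 to Grik3 as partners, were in 23.1% and 14.4% of cells.

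The NMDA class was lopsided in these data. Grin1 is the obligatory subunit of NMDA receptors, and Grin2 subunits bind glutamate. Grin2b, the main embryonic Grin2 gene, was at 0.191, 0.421, 5.63, 24.7, 15.9, 2.70, 12.2 and 22.1 TPM along the NSC series, at 2.12, 34.8, 17.59, 17.61 and 17.57 TPM along the BP series and at 92.7, 58.8, 84.7 and 0.795 TPM along the NBN series. The 3 NBN libraries up to P1 lay above all others. It was found in 525 of 1094 cells (48.0%, interval 45.0 to 51.0) and in 59 of 63 at NBN E16.5.

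Grin1, in contrast, was at or under 7.44 TPM in every library and at 1 TPM or more in 53 cells (4.84%, interval 3.65 to 6.29). Of 533 cells with a Grin2 gene, 41 also held Grin1 and 492 did not. Cells with both were 7 of 538 in NSC, 10 of 344 in BP and 24 of 212 in NBN libraries, and the libraries NBN E16.5 and NBN E18.5 gave 11 each. At a threshold of 10 TPM, 19 cells held both and 270 held Grin2 without Grin1. The exons of Grin1 overlap an antisense gene, Grin1os, and reads of a pair like this cannot be separated without strand. Grin2a, Grin2c and Grin2d stayed at or below 1.12 TPM in every library.

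**Figure D2:**
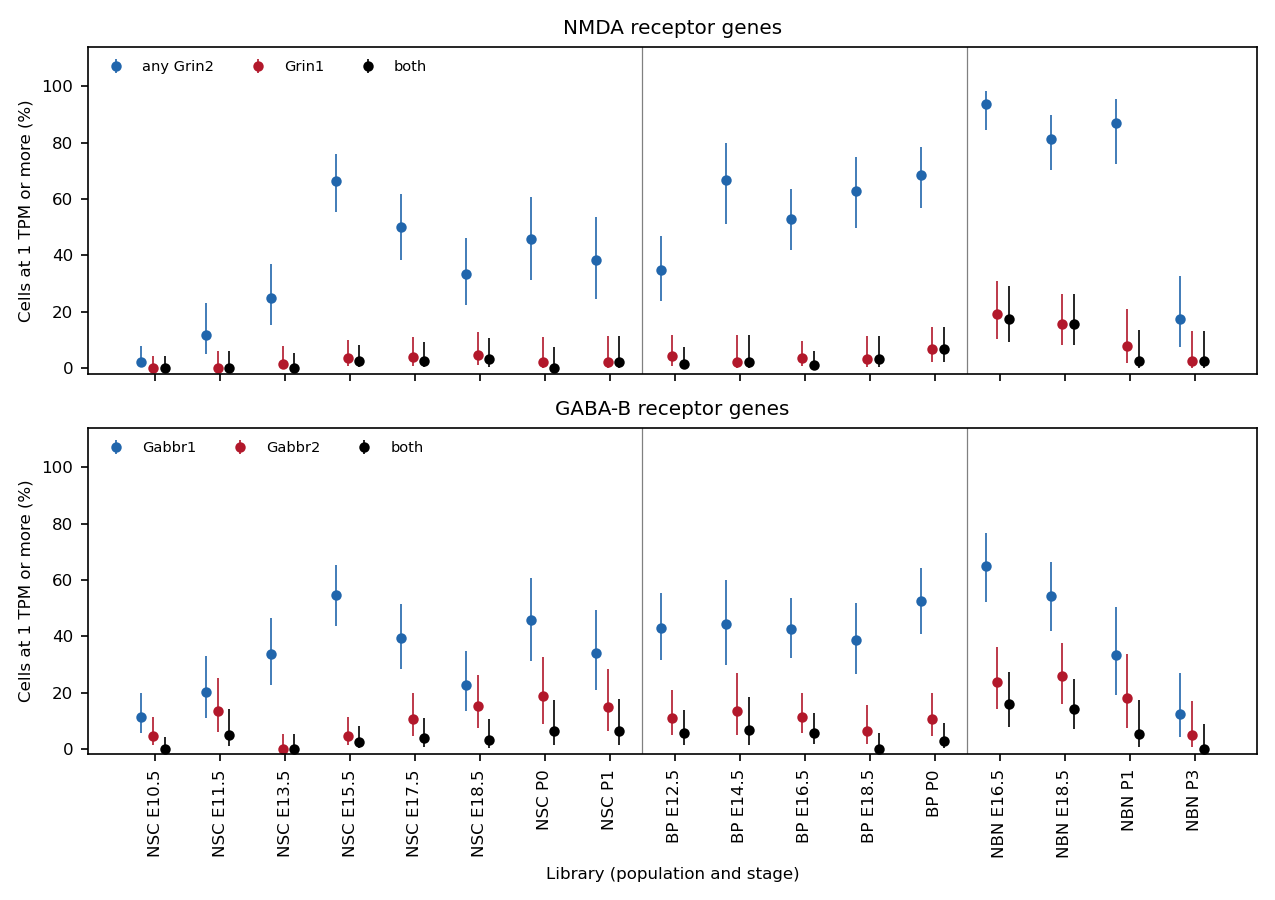
Points give the percentage of cells of each library at 1 TPM or more, with exact 95% intervals over cells, for NMDA genes (top) and GABA-B genes (bottom). Grin2 genes were in 93.7% of NBN E16.5 cells, while the points for Grin1 and for both genes lie under 20% in all libraries; Gabbr1 was in 65.1% of NBN E16.5 cells, and cells with both GABA-B genes peak there at 15.9%.

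Grin3a codes for a glycine-binding NMDA subunit that lowers calcium flow. Along the NSC series its means were 0.00655, 0.00171, 0.00903, 0.00968, 1.08, 11.7, 15.49 and 4.71 TPM, so the 4 libraries up to E15.5 lay near 0 and the 4 later ones above 1 TPM. The age slope over the 8 NSC libraries was 0.38 ± 0.09 (SE) per day on the log2(TPM + 1) scale, adjusted p = 0.0454 by limma. The means rest on few cells, namely 4 of 48 (P0), 5 of 66 (E18.5) and 3 of 47 (P1), all with a progenitor profile. In the fit without cells that hold markers of another type the slope was 0.34 and the adjusted p 0.245, and over all 24 alternatives the adjusted p ran from 0.0102 to 0.245. The call was also lost when NSC E10.5, E11.5, E13.5, E18.5, P0 or P1 was left out, or any of the 5 BP libraries or NBN E16.5. Grin3b had no such course; its 24.7 TPM at NSC E17.5 came to 97% from 1 cell, and its exons overlap Tmem259.

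Delta subunits resemble glutamate channels but serve mainly as synaptic organizers. Grid1 was widespread and low: it was at 1 TPM or more in 61.5% of all cells, at 0.963 to 27.3 TPM in NSC, 1.40 to 6.42 TPM in BP and 5.52 to 9.72 TPM in NBN libraries. Its 2 highest libraries were NSC P0 (27.3 TPM, 43 of 48 cells) and NSC P1 (12.8 TPM, 36 of 47 cells).

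Of the metabotropic receptors, Grm3 (coupled to inhibition of adenylate cyclase) and Grm5 (coupled to calcium release) had the highest means. Both are known from glial progenitors and astrocytes. Grm5 was at 0.0112, 0.0417, 0.835, 3.52, 5.39, 14.4, 67.3 and 18.9 TPM along the NSC series, and at 0.0436, 6.01, 2.27, 0.0654 and 0.8002 TPM along the BP series. In NBN libraries it was at 50.9, 16.2, 27.7 and 0.438 TPM. Every NSC library from E18.5 on and every NBN library up to P1 lay above every BP library.

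The Grm5 level rose with age in the NSC series, by 0.55 ± 0.11 per day on the log2(TPM + 1) scale (adjusted p = 0.021, limma). Grm5 and Grin3a were the 2 of 27 tested members that passed, both upward, while 1.12% of all 14072 genes passed upward and 1.36% in either direction. At an unadjusted p under 0.05 there were 11 of 27 members, all upward, against 12.8% of all genes in either direction, and 25 of the 27 slopes were positive with a median of 0.20 per day, against a median of 0.01 over all genes. The next members were Grid1 (0.29 ± 0.07, adjusted p = 0.0634), Gria2 (0.53 ± 0.14, adjusted p = 0.077) and Grm3 (0.59 ± 0.15, adjusted p = 0.0793). Without NSC E15.5 and NBN P3, 4 members passed upward (Grm5, Grin3a, Gria2 and Grm3), against 1.68% of all genes. The Grm5 call was lost when NSC E10.5, NSC E11.5 or NSC P0 was left out (adjusted p 0.0819, 0.0822 and 0.0723). It was also lost when log2 values were averaged over cells (slope 0.11, adjusted p = 0.0618). The same held with a pseudocount of 10 (adjusted p = 0.0616) and with no filter on low values (adjusted p = 0.0551).

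Most cells of the late NSC libraries had a progenitor profile (42 of 48 on P0, 44 of 47 on P1, and 51 of 66 in the E18.5 library), and positive cells of that profile have to be read against this. For Grm5, 13 of 14 positive cells had it on P0, where 13 of 42 progenitor-profile and 1 of 3 neuron-profile cells held the gene. It was 4 of 4 on P1 and 6 of 7 in the E18.5 library. At P0, 7 of the 19 cells with interneuron markers and 7 of the 29 cells without markers of another type held it, and the mean of these 29 cells was 71.7 TPM. Without all cells that hold such markers the slope was 0.57 per day (adjusted p = 0.0323, within a range of 0.00935 to 0.0822 over 25 alternatives). A single cell carried 47.5% of the P0 sum, and the mean without it was 36.1 TPM. Markers of astroglia also rose in the NSC series. Their list had a mean log2(TPM + 1) of 0.15 to 0.92 in libraries up to E17.5 and of 1.74, 4.42 and 4.25 in the 3 later ones. The oligodendrocyte list went from 0.02 to 0.12 up to E17.5 to 1.15, 1.12 and 1.47. The part of either in these slopes was not tested beyond the fit without cells that hold such markers, which covers oligodendrocyte but not astroglia markers. From NSC E17.5 to P1 the astroglia list was at 0.92, 1.74, 4.42 and 4.25. From NSC E17.5 to P1, Grm3 was at 24.3, 6.06, 104.7 and 24.3 TPM and Grm5 at 5.39, 14.4, 67.3 and 18.9 TPM.

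**Figure D3:**
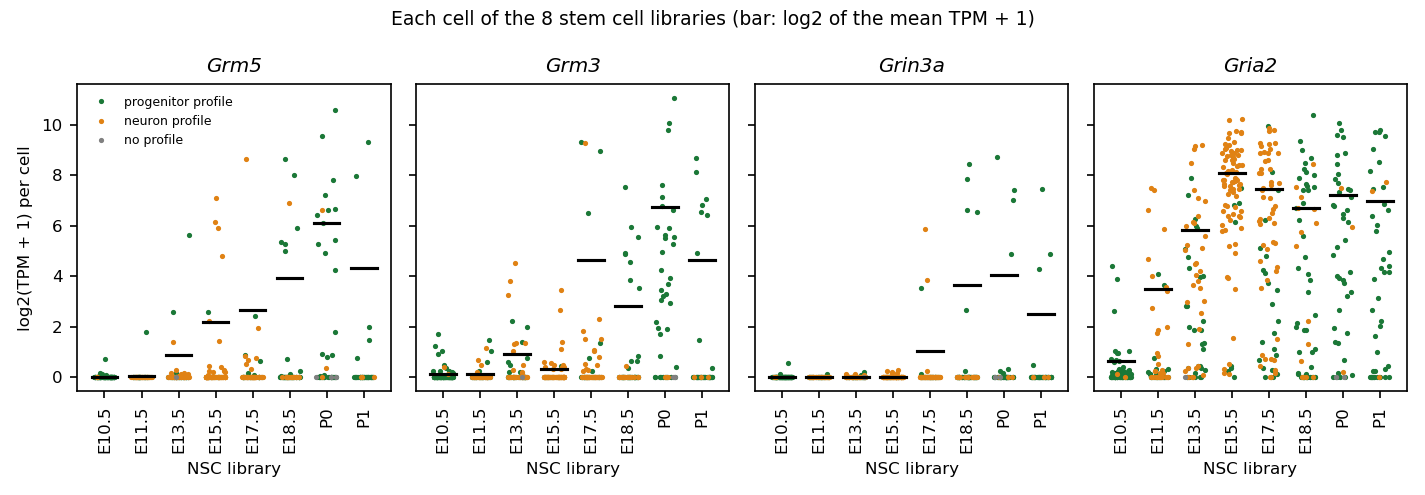
Each point is 1 cell of the 8 NSC libraries, coloured by profile, with log2(TPM + 1) on the y axis and stage on the x axis; black bars give log2 of the library mean TPM + 1. Positive cells for Grm5, Grm3 and Grin3a at E18.5 to P1 are nearly all of progenitor profile, as are most cells of these libraries, while Gria2 at E15.5 is carried by neuron-profile cells.

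Grm3 was at 0.0884, 0.101, 0.898, 0.252, 24.3, 6.06, 104.7 and 24.3 TPM along the NSC series. It was in 26 of 48 cells at P0 (54.2%, interval 39.2 to 68.6), all of progenitor profile. A single cell held 41.9% of this P0 sum, and the mean without it was 62.1 TPM. At NSC E17.5 the 11 positive cells of 76 had a median of 2.59 TPM and a highest value of 633 TPM. In BP libraries Grm3 was between 0.127 and 9.04 TPM, and in NBN libraries up to P1 at 22.2, 19.7 and 120.0 TPM. At NBN P1 a single cell held 83.0% of the Grm3 sum, and the mean without it was 21.0 TPM. As for Grm5, every NBN library up to P1 exceeded every BP library. Both receptors were found together in 18 NSC cells, 1 BP cell and 18 NBN cells.

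Grm2, a presynaptic inhibitory receptor, was at 18.4, 19.0 and 19.4 TPM in the NBN libraries up to P1 and at 0 in NBN P3, against 0 to 4.44 TPM in NSC and 0 to 18.0 TPM in BP libraries. It was in 13 of 63 cells at NBN E16.5 (20.6%). Grm4, Grm6, Grm7 and Grm8 never exceeded 6.43 TPM.

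Among GABA-A alpha subunits, which form the GABA binding site together with beta subunits, Gabra2 had the highest mean of those described. Its means were 0.124, 0.166, 11.8, 57.4, 32.5, 21.8, 0.438 and 36.1 TPM along the NSC series, 24.3, 38.6, 69.3, 48.5 and 154.4 TPM along the BP series and 72.3, 160.0, 38.2 and 0.113 TPM along the NBN series. The 36.1 TPM at NSC P1 came from a single cell, and the BP and NBN ranges up to P1 overlapped. At NBN E16.5, 1 cell held 69.9% of the Gabra2 sum, and the mean without it was 22.1 TPM. Gabra4, often a partner of delta subunits outside synapses, was highest at NSC P0 with 45.2 TPM in 7 of 48 cells, all of progenitor profile. Gabra3 and Gabra5 were each in under 4% of cells. Gabra5, typical of hippocampal tonic receptors, reached 6.59 TPM at NBN E16.5 and 5.73 TPM at NBN E18.5, with at most 0.157 TPM in all other libraries. A single cell held 83.7% of the Gabra5 sum at NBN E16.5 and 49.3% at NBN E18.5. The means without these cells were 1.09 and 2.95 TPM. Gabra6, a cerebellar granule cell subunit, was at 0 everywhere. Of the beta subunits, Gabrb1 was highest at NSC P1 (29.9 TPM, 13 of 47 cells), and Gabrb2 at NBN E18.5 (16.1 TPM). For Gabrb1, 1 cell held 48.1% of that sum, and the median of the 13 cells was 3.77 TPM. For Gabrb2, 1 cell held 62.3%, and the mean without it was 6.15 TPM.

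Gabrg1, a gamma subunit known from glia, was found at NSC P0 (4 cells, 21.2 TPM) and NSC P1 (3 cells, 9.27 TPM), all 7 of progenitor profile and without markers of another type. Elsewhere it did not exceed 1.51 TPM. Gabrg3, another gamma subunit, was in 17.3% of all cells but at 3.62 TPM or less in every library, and Gabrq, the theta subunit, was in 18.6% of cells at 0.987 TPM or less. The rho subunits were nearly absent, with Gabrr2 in 2 cells of NSC E10.5 and Gabrr1 in 1 cell of NBN E16.5.

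Neighbouring GABA-A genes differed in level. On chromosome 5 (GENCODE M21, GRCm38), Gabrg1 (70751047 to 70842617), Gabra2 (70957597 to 71095849), Gabra4 (71569749 to 71658308) and Gabrb1 (71658113 to 72149037) had means over the 17 libraries of 1.92, 45.1, 8.36 and 5.50 TPM. Gabra4 and Gabrb1 overlap at their starts, so reads from there cannot be assigned without strand.

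The GABA-B pair was uneven as well. Gabbr1, which binds GABA, had means of 5.89 to 51.5 TPM in NSC, 26.5 to 49.1 TPM in BP and 14.8 to 82.2 TPM in NBN libraries, and all ranges overlapped. Gabbr2, which carries the pair to the membrane and couples it to the G protein, was at 0.105 to 3.20 TPM in NSC and 1.17 to 10.7 TPM in BP libraries, and at 9.88, 8.96, 21.8 and 0.246 TPM in NBN libraries. Its NBN libraries up to P1 lay above all NSC libraries. At NBN P1 1 cell held 83.0% of the Gabbr2 sum, and the mean without it was 3.80 TPM, near the NSC maximum of 3.20 TPM. Single cells also held 92.6% of the sum at BP E12.5 and 85.8% at BP P0, where the means without them were 0.323 and 0.665 TPM. Gabbr2 was at 1 TPM or more in 9.29% of NSC, 10.5% of BP and 19.8% of NBN cells. Gabbr1 was in 425 cells, Gabbr2 in 128, and both in 52 (4.75%, interval 3.57 to 6.19). Cells with both were 16 of 538 in NSC (2.97%), 14 of 344 in BP (4.07%) and 22 of 212 in NBN libraries (10.4%), none of the last in NBN P3.

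**Figure D4:**
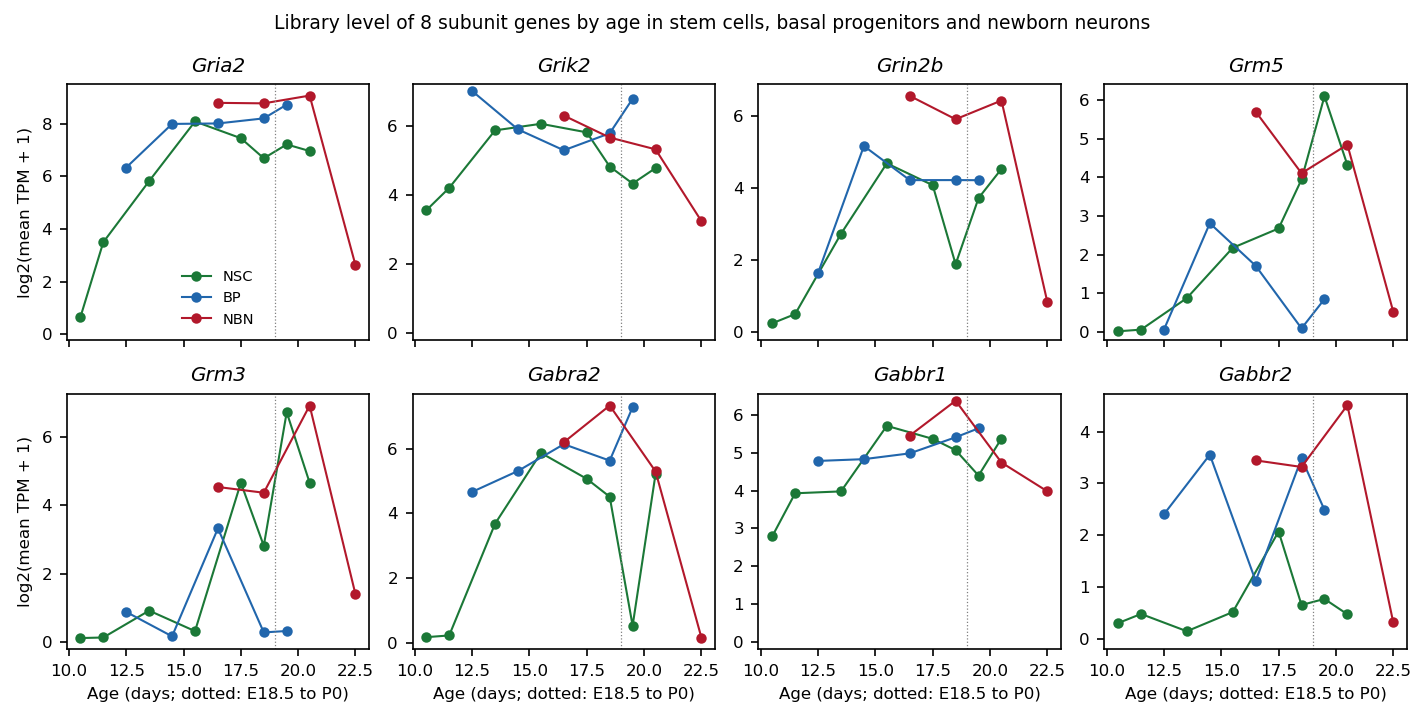
Library levels, log2(mean TPM + 1), of 8 subunit genes against age in days (P0 set at 19.5), with 1 point per library and 1 line per population; the dotted line parts E18.5 from P0. Gria2, Grin2b, Gabra2 and Gabbr2 are higher in the NBN libraries up to P1 than at P3. Grm5 climbs in the NSC line (0.0112 to 67.3 TPM from E10.5 to P0) but not in the BP line.

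The populations were compared over all 17 libraries with age held in the limma fit. Between BP and NSC, 0 of 27 members passed, against 0.476% of all genes, and 5 had an unadjusted p under 0.05, as had 1899 of the 14072 genes. The leading members were Gabbr2 (1.94 ± 0.62 higher in BP on the log2 scale, adjusted p = 0.188), Gria1 (2.99 ± 1.04, adjusted p = 0.224) and Grik2 (1.24 ± 0.54, adjusted p = 0.319). Without NSC E15.5 and NBN P3, 3 members passed, all higher in BP, while 1.48% of all genes did so. These were Gria1 (3.43 ± 0.72, adjusted p = 0.0172), Gria2 (2.21 ± 0.54, adjusted p = 0.0353) and Gabbr2 (1.89 ± 0.50, adjusted p = 0.0474). With either of these libraries left out alone, 0 passed. NSC E15.5 held the highest NSC means of Gria1 (32.8 TPM) and Gria2 (270.2 TPM). For Gabbr2, whose BP means rest on few cells, the difference was 0.16 (adjusted p = 0.533) when log2 values were averaged over cells, and the adjusted p ran from 0.0474 to 0.839 over all alternatives. Neuron-profile cells made up at least 91.0% of every BP library and less of every NSC library, and their part in this difference was not tested in this fit.

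Between NBN and NSC, 0 of 27 passed, against 1.66% of all genes, and 4 had an unadjusted p under 0.05, as had 15.7% of all genes. The smallest p was that of Gabbr2, with 2.27 ± 0.74 (adjusted p = 0.126), followed by Grm2 (2.85 ± 0.94, adjusted p = 0.133). Without the same pair of libraries 4 passed, all higher in NBN, against 3.1% of all genes: Gabbr2 (2.91 ± 0.62, adjusted p = 0.0108), Grm2 (3.73 ± 0.81, adjusted p = 0.0123), Gria1 (3.70 ± 0.88, adjusted p = 0.0197) and Grin2b (2.97 ± 0.72, adjusted p = 0.022). Over all alternatives the adjusted p of Gabbr2 ran from 0.0104 to 0.287 and that of Grm2 from 0.0123 to 0.289. The 27 members had a median of 0.10 over all 17 libraries, against -0.10 over all genes. NSC E15.5, left out in the second fit, held the highest NSC means of Gria1 (32.8 TPM) and Grin2b (24.7 TPM). Neuron-profile cells made up 92.9% to 95.2% of the NBN libraries up to P1 and at most 68.4% of every NSC library but E15.5. Their part in these differences was not tested in this fit.

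Between NBN and BP, 0 of 27 passed and 0 had an unadjusted p under 0.05, against 0.0142% of all genes that passed and 9.12% with an unadjusted p under 0.05. Without NBN P3 the count was again 0, with 3 of 27 members and 1375 of 14072 genes at an unadjusted p under 0.05, led among members by Grm5 (2.99 ± 0.95, adjusted p = 0.279) and Grm3 (3.31 ± 1.09, adjusted p = 0.289).

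Age slopes within BP gave 0 of 27 members, as they gave 0% of all genes, with 2 members and 3.64% of all genes at an unadjusted p under 0.05. Age slopes within NBN gave 0 of 27, against 0.448% of all genes. Here 11 of 27 members had an unadjusted p under 0.05, all downward, led by Grin1 (-0.55 ± 0.15 per day, adjusted p = 0.0846). All genes leaned downward in this fit: 19.7% had an unadjusted p under 0.05, 32.5% of slopes were positive, and the median was -0.12 per day against -0.41 for the members. Without NBN P3, 3 members had an unadjusted p under 0.05, as had 1668 of 14072 genes. These members were Gabra3, Gabrb2 and Grin1, and the Gria2 slope was 0.07 in place of -0.91 per day. The difference between BP and NSC slopes passed for 0 of 27 members, against 0.00711% of all genes, with 4 members and 3.95% of all genes at an unadjusted p under 0.05. Among these were Gabra3 (-0.71 ± 0.17 per day) and Grm5 (-0.61 ± 0.22 per day). The late NSC means of Gabra3 came mostly from 1 cell each. That cell held 90.2% of the sum at NSC E17.5, 92.0% at NSC E18.5, 99.9% at NSC P0 and 100% at NSC P1.

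Because the NSC sorts held cells of both profiles, neuron-profile and progenitor-profile cells were also compared within the 6 libraries that had at least 5 of each (NSC E11.5 to E18.5 and NBN P3), with the library as a block. No member passed (0 of 27, against 0.00711% of all genes), and 5 had an unadjusted p under 0.05, as had 11.6% of all genes. Of these 5, the differences were positive (higher in neuron-profile cells) for Gabra2 (2.91 ± 0.89, adjusted p = 0.281), Gria2 (1.85 ± 0.56, adjusted p = 0.28) and Grin2b (1.56 ± 0.53, adjusted p = 0.312). They were negative for Gabra4 (-1.94 ± 0.79, adjusted p = 0.401) and Grid1 (-1.18 ± 0.51, adjusted p = 0.425). For Gabra4 this rests on few cells. Its progenitor-profile mean was 60.8 TPM at NSC E15.5 with 1 of 8 cells positive, and 13.1 TPM at NSC E13.5 with 1 of 32. The median of the 27 members was 0.58, against -0.05 over all genes. In NBN P3, 36 of 40 cells held markers of another type, so its profiles need not be neurons and progenitors. Without NBN P3, 0 members passed again, against 0.0355% of all genes. An unadjusted p under 0.05 was then found for 5 members and for 1807 of 14072 genes. The member median was 0.64, against 0.05 over all genes.

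Gabra2 illustrates the contrast. Its progenitor-profile means were 0.132, 0.121, 0.0491, 2.64 and 6.15 TPM in NSC E11.5 to E18.5, and the neuron-profile means 0.195, 22.8, 63.2, 46.2 and 75.0 TPM. Each of these neuron-profile values lay above its partner, narrowly at E11.5 and through 2 of 15 cells at E18.5, and in NBN P3 both were near 0. Over all NSC libraries 72 of 220 neuron-profile cells held the gene against 22 of 314 progenitor-profile cells. Grin2b was higher in neuron-profile cells of all 6 libraries, in NBN P3 with 1.91 against 0.371 TPM and 18.2% against 17.2% of cells. Gria2 was higher in 5 of 6, the exception being NSC E18.5 with 111.6 TPM in progenitor-profile and 69.2 TPM in neuron-profile cells. Grid1 was lower in neuron-profile cells of all 6 libraries, for example 4.32 against 1.49 TPM at NSC E13.5. Progenitor-profile cells were not without receptors: 136 of 314 (43.3%) held Gria2 and 208 of 314 (66.2%) held Grid1. Median gene numbers of progenitor-profile and neuron-profile cells were 5414 and 5326 at NSC E13.5 and lay farthest apart at NBN P3, with 3535 and 2736.

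**Figure D5:**
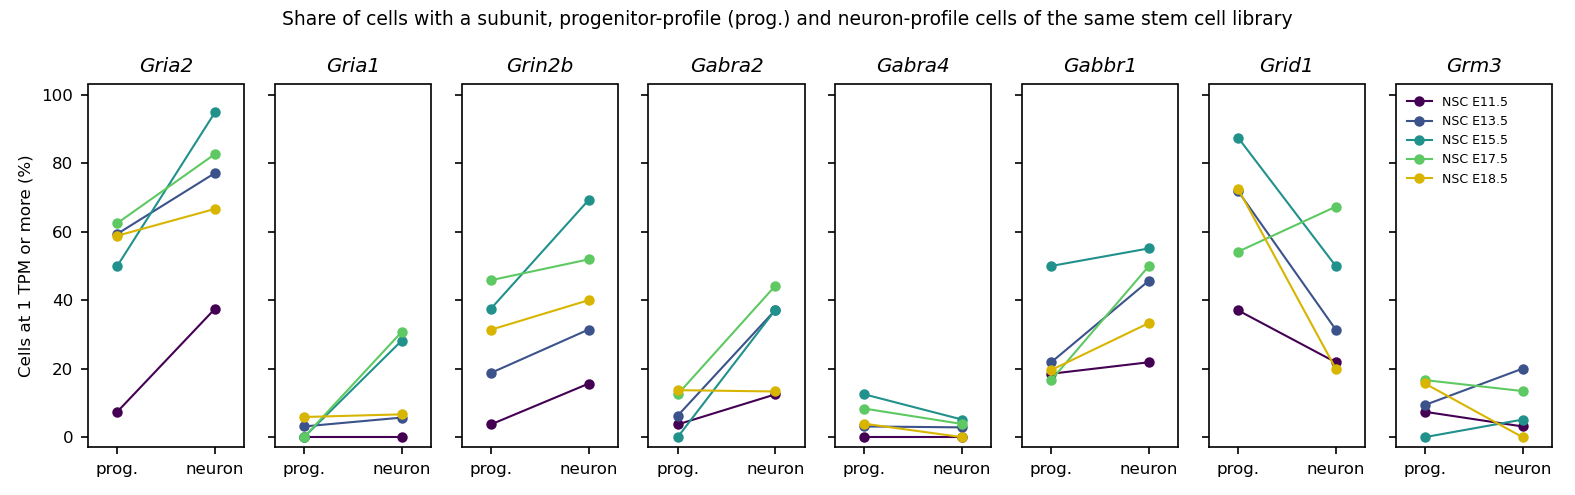
Lines join progenitor-profile and neuron-profile cells of the same NSC library (colours), and the y axis is the percentage of cells at 1 TPM or more. Gria2, Grin2b and Gabbr1 lines go up in all 5 libraries, and Grid1 lines go down in 4 of 5, E17.5 being the exception.

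Other genes of these pathways were followed as lists. Of 30 receptor partners, proteins that traffic and anchor the receptors, 29 were tested and 0 passed in any of the comparisons, with 1 to 13 at an unadjusted p under 0.05, where the share of all genes ran from 3.64% to 19.7%. The highest were Gabarap (354.0 TPM over the 17 libraries), Cacng4, an AMPA auxiliary subunit (50.4 TPM), and Nsf (40.1 TPM). Of 13 genes for transmitter supply and uptake, 11 were tested. In the NSC series 5 rose with age: the glutamate transporters Slc1a3 (0.65 ± 0.10 per day, adjusted p = 0.00328) and Slc1a2 (0.52 ± 0.08), the GABA transporter Slc6a11 (0.49 ± 0.10), the GABA-synthesizing enzyme Gad1 (0.45 ± 0.09) and glutamine synthetase, Glul (0.36 ± 0.07). In this fit 1.12% of all genes rose. Slc1a3 is also 1 of the radial glia genes, Slc1a2 1 of the astroglia markers and Gad1 1 of the interneuron markers, so these lists overlap. Slc1a3 (-3.62 ± 0.56) and Gad1 (-3.78 ± 0.65) were lower in BP than in NSC libraries, and Slc1a2 (-3.45 ± 0.73) was lower in NBN than in NSC. Of all genes, 0.476% passed between BP and NSC and 1.66% between NBN and NSC, in either direction. The highest of this list were Slc1a3 (312.0 TPM), Glul (76.8 TPM) and Slc17a6, a vesicular glutamate transporter (73.5 TPM).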

How the data were processed

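Per the submitters' processing notes, TPM per gene and cell were computed with kallisto 0.43.0; these notes list GRCm38.p2 and mm10 as builds. The deposited files hold these TPM values for 17 libraries; the authors' columns of near-empty cells that hold only whole numbers are listed as a score here but were treated like the others, and the 11 cells with under 50 genes hold no receptor transcript. Columns that could not be mapped numbered 0. TPM keep no depth, so no count model was used. TPM were averaged over the cells of a library, because cells are not replicates. The levels were log2 transformed with a pseudocount of 1, genes with a mean of at least 1 TPM in at least 4 libraries were kept, and limma 3.58.1 (R 4.3.3, trended empirical Bayes, two-sided, Benjamini-Hochberg over 14072 genes, threshold 0.05) was fitted over all 17 libraries with population and age, or with an age slope per population. Fold changes on this scale understate those of low genes. P0 was set at 19.5 days. Markers of another type were 3 or more of its list at 10 TPM. A cell was counted for a gene at 1 TPM or more; intervals are exact Clopper-Pearson and cover counting of cells only. The kit stated in the labels' protocols is not described as keeping strand; 18 of the 42 members described have exons that overlap another gene. All 42 matched GENCODE M21, and 32 matched RefSeq promoters (GRCm38.p6). Of the 47 genes of the rule 5 are not reported here; the fits include all genes. Members, lists and comparisons were chosen with earlier results of these data known. Named in full are members that passed a test and the 2 highest of each receptor class; Gria1, Grin1, Grm2 and others outside this rule were named after their values were seen. The fit was tested on simulated data. Alternatives were other pseudocounts, filters, normalization, cell filters, profile definitions and libraries left out.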

Additional observations from a re-analysis of the deposited data

Results flagged for a closer look

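In 81 groups of 4 to 8 libraries (1 gene in 1 population), 16 had a library far from the others. A rate of 1 in 20 would give about 4, but groups share libraries and some means lie near 0 or rest on 1 cell. The excess is therefore not read as a result. All values are mean TPM. In the library labelled NBN P3, Gria2 (5.17), Grin2b (0.795) and Grm2 (0) were far below the other NBN libraries, and Grin3b (6.99) and Grm8 (2.07) far above. In NBN E16.5, Grm4 (1.04) and Gabra3 (11.8) were far above the other NBN libraries. In BP E16.5, Grik1 (0.503) and Grm3 (9.04) were far above the other BP libraries, in BP E14.5 Grik3 (13.0) was, and in BP E12.5 Grin2b (2.12) was far below. In NSC E15.5, Gabrg3 (3.62) was far above the other NSC libraries, as were Grm8 (5.33) and Gabbr2 (3.20) in NSC E17.5, Grin1 (2.73) in NSC E18.5 and Grik5 (46.6) in NSC P1. A single cell carried 78% of the Grik5 sum in NSC P1, 94% of the Grin1 sum in NSC E18.5 and 100% of the Grm8 sum in NSC E17.5. The same holds for 98.6% of the Grm4 sum in NBN E16.5, 100% of the Grm8 sum in NBN P3 and 82.4% of the Gabrg3 sum in NSC E15.5.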

How the results depend on the processing

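Over 1002 alternative fits of 42 named values, 941 kept direction and side of the threshold, 21 lost the call, 35 gained it and 5 reversed. The reversed values were the NBN age slopes of Gria2 (0.069) and Grm2 (0.019) without NBN P3, with or without NSC E15.5, and of Gabra3 (0.013) without NBN E16.5; with each library left out, these slopes ran from -1.54 to 0.069 for Gria2, -1.08 to 0.019 for Grm2 and -0.86 to 0.013 for Gabra3. Members called between NBN and NSC (0) became 1 with the mean of log2 over cells, 4 without NSC E15.5 and NBN P3 and 3 with stage as a factor, and 0 to 2 with each library left out (2 without NBN P3). Between BP and NSC the 0 became 3 without NSC E15.5 and NBN P3. For NSC age slopes the 2 became 0 with pseudocount 10, 0 with no filter on low values, 1 with a filter of 10 TPM, 4 with the mean of log2, 1 without cells holding markers of another type and 4 without NSC E15.5 and NBN P3, and 0 to 4 with each library left out (0 without NSC E10.5, E11.5 or P0, and 4 without NBN P1 or NBN P3). The 4 with the mean of log2 did not include Grm5 (adjusted p = 0.0618, limma). For NBN age slopes the 0 became 4 with no filter, 8 with the mean of log2 and 6 without cells holding markers of another type, all downward, and 0 to 3 with each library left out (3 without NBN P1). Between profiles the 0 became 1 with the mean of log2 (Gria2). The counts between NBN and BP, for BP age slopes, and for the difference of slopes were 0 in each fit with a library left out. At 10 TPM, 8 members in place of 17 were in 10% of cells, and co-detection was 1.74% in place of 3.75% for Grin1 with Grin2, 3.38% in place of 6.40% for AMPA without Gria2 and 1.46% in place of 4.75% for Gabbr1 with Gabbr2. The causes were not tested. No paired analysis was possible because replicate numbers in the labels only number the cells within a library. The number of libraries, 4 to 8 a population with 1 a stage, and the unknown depth behind TPM limit what can be detected.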
